A study of Mus musculus with 18 samples.

Results

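The genes described here are 37 genes of microglia and macrophages, measured in cultures that were sorted to hold astrocytes. They were taken as a list of symbols and matched by Entrez gene ID to the deposited table of read counts, where 37 of 37 were found among 26301 genes. Of these, 6 are genes that mark resting microglia in the brain (homeostatic genes), 27 are general genes of myeloid cells, and 4 encode lysosomal proteins. The expression filter passed 35 of the 37, and 16539 genes of the whole table, into the tests. Tmem119 and Siglech did not pass it and are given by their counts only.

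The co-cultures were mouse cortical astrocytes given TdTomato-positive hippocampal neurons from newborn mice and kept with them for 2, 4 or 7 days, and their controls were the same kind of astrocytes kept without neurons for the same times (alone). There were 3 libraries in each of these 6 groups, numbered replicate 1 to 3, and the labels give the 6 libraries of a number 1 date. All astrocytes came from newborn cortex, were expanded in serum medium for about 2 weeks and moved to serum-free N2 medium, and all cultures were detached with TrypLE and sorted by TdTomato fluorescence. Several features limit the model. The gate reads TdTomato alone, so any cell without that protein falls on the astrocyte side of it. Neither the strain nor the promoter that drives TdTomato is given in the sources used here. Nothing shows that the replicates came from separate animals, and the p-values therefore describe the spread of these libraries only, which may be technical.

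Microglia are the resident macrophages of the brain. They arise from myeloid precursors outside the neural lineage, depend on signals through the receptor Csf1r for survival, and are a common minority in primary cultures of newborn cortex. Their gene programme is set largely by the transcription factor PU.1, encoded by Spi1, which binds purine-rich DNA with a GGAA core, together with Irf8. Homeostatic genes such as P2ry12, Tmem119 and Siglech are known to fall when microglia leave the brain for culture, while general myeloid and lysosomal genes such as Lyz2, Cd68 and Ctss stay high in cultured macrophages.

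The promoters of 4 members called higher in the same replicate number are shown with the short motifs of PU.1 that they hold. The sequences are from RefSeq, build GRCm38.p6, run 5′ to 3′ on the gene's own strand and cover 250 bases before to 50 bases after the annotated gene start. Capitals mark GAGGAA or GGAAGT, read on either strand, so that TTCCTC and ACTTCC are also in capitals, and the 2 motifs overlap where they form GAGGAAGT. The promoters are those of Cd53 (chr3:106790100-106790399, minus strand), Ctss (chr3:95526536-95526835, plus strand), Fcrls (chr3:87263475-87263774, minus strand) and Lyz2 (chr10:117282223-117282522, minus strand).
Cd53: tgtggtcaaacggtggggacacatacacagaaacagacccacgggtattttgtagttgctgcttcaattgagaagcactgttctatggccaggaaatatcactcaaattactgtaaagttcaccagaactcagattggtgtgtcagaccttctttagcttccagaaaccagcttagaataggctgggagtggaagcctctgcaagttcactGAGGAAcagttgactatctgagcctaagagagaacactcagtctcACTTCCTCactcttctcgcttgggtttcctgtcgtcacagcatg
Ctss: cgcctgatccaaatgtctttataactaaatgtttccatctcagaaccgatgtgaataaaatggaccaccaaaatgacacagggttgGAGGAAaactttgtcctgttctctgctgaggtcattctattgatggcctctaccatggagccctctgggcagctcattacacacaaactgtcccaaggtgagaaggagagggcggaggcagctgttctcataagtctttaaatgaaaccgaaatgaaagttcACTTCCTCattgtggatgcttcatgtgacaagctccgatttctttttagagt
Fcrls: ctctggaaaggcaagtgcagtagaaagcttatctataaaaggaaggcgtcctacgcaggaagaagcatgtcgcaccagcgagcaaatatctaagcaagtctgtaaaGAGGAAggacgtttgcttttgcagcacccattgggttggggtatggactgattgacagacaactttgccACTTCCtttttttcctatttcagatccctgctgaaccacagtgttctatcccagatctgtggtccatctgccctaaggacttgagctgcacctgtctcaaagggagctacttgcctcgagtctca
Lyz2: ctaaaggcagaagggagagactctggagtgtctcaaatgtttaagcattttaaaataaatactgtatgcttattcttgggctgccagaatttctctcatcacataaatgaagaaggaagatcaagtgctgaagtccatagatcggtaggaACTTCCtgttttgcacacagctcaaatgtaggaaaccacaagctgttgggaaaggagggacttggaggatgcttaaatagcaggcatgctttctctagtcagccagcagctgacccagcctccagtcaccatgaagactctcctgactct

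A promoter entry was given for 27 of the 37 members. GAGGAA was in 17 of these 27 (63%), against 31.3% of the 27025 genes with an entry, and GGAAGT was in 16 (59.3%), against 26.5%. The joined motif GAGGAAGT was in the promoters of C1qc, Cd53, Ctss and Inpp5d, which is 14.8% of the members with an entry, against 3.69% of all genes. The longer form AGAGGAAGT was in none of the 27, against 1.18% of all genes. The AP-1 motif TGACTCA was in 2 promoters (7.41%, against 5.95%) and the E-box CACGTG in 2 (7.41%, against 8.09%). A match describes these letters in this window and is not a measured binding site.

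Total counts ran from 3242459 to 32623556 reads, with a median of 21115088. Replicate 1 of astrocytes alone at day 2 had the fewest reads, a TMM factor of 0.0459 and 1 gene with 92.5% of its reads. In that library 66.2% of the tested genes had a read, and 1 read was worth 6.72 counts for each 1e6 reads (CPM, scaled by the TMM factor throughout). The day 7 co-culture of replicate 1 had 8966485 reads, a TMM factor of 0.665 and a read in 83.1% of tested genes, against 85.4% to 99.1% in the 16 other libraries. Some results that rest on these 2 libraries are given with and without them. Others, among them most fold changes and most tests of co-culture and of days, are given with all 18 libraries only. A count of 0 allows a level of up to 3 reads, which is 20.2 CPM in the first, 0.503 CPM in the second and 0.0743 to 0.179 CPM in the others, for counting error only. The astrocyte label was checked with 10 astrocyte genes, among them Gfap and Aqp4, whose summed level was 2187 to 2720 CPM in replicate 2, 605 to 2049 CPM in replicate 1 and 4251 to 5647 CPM in replicate 3.

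The summed level of the members separated the replicate numbers with 1 exception among 18 libraries, while co-culture and alone overlapped at each day. The 37 genes summed to a mean of 424 ± 211 CPM in the libraries of replicate 2, against 147 ± 126 CPM in those of replicate 1 and 26.3 ± 3.9 CPM in those of replicate 3 (SD, n = 6 each). Without the 2 libraries with few genes detected, the mean of replicate 1 was 84.6 ± 28.2 CPM (SD, n = 4). In reads, replicate 2 held 76421 of the 93352 member reads, replicate 1 held 12899 and replicate 3 held 4032, while their total counts were 134208643, 103812003 and 128408674. In bulk samples, fewer cells of a type and less RNA per cell cannot be told apart.

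In replicate 2 the summed level was 545 CPM in the co-culture and 278 CPM alone at day 2, 298 and 313 CPM at day 4, and 805 and 307 CPM at day 7. In replicate 1 it was 85.9 CPM in the co-culture and 148 CPM alone at day 2, 116 and 89.2 CPM at day 4, and 395 and 47.4 CPM at day 7. In replicate 3 it was 27.3 CPM in the co-culture and 21.8 CPM alone at day 2, 31.7 and 21.9 CPM at day 4, and 28.8 and 26.2 CPM at day 7. Every library of replicate 2 lay above every library of replicate 3, and above every library of replicate 1 other than its day 7 co-culture. The 148 CPM of replicate 1 alone at day 2 came from 22 reads.

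**Figure D1:**
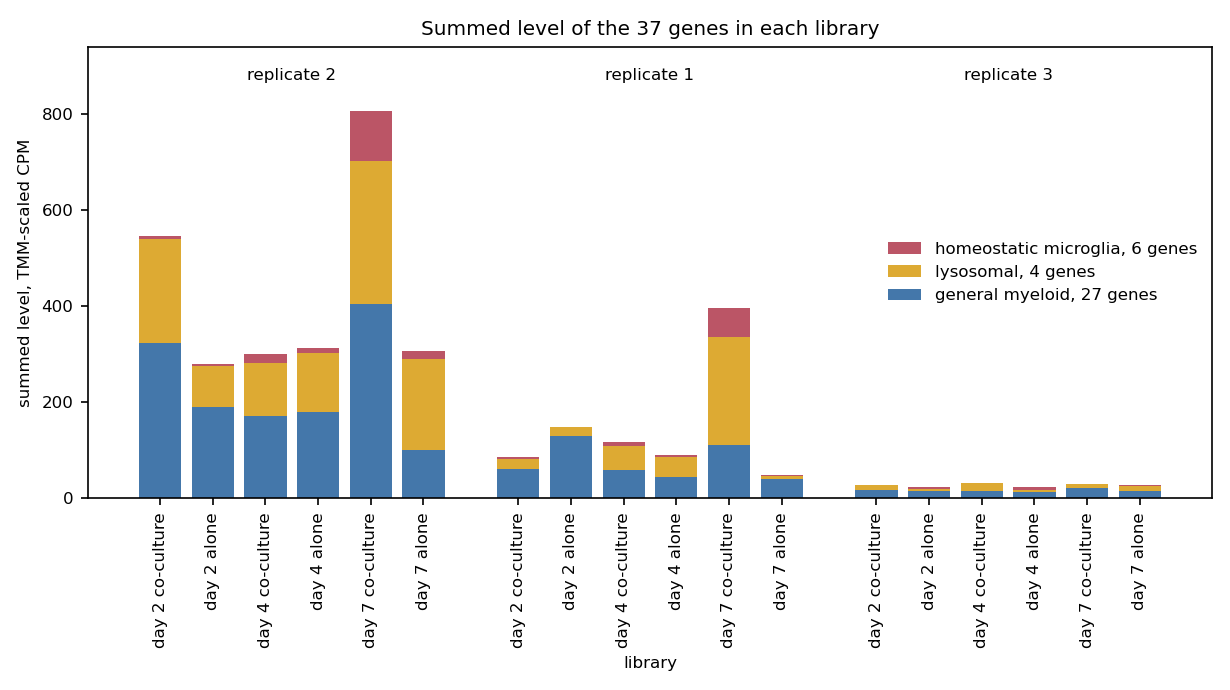
Summed TMM-scaled CPM of the 37 genes in each of the 18 libraries (bars, from 0), split into 6 homeostatic, 4 lysosomal and 27 general myeloid genes, ordered by replicate number with co-culture left of alone at each day. Replicate 2 held 278 to 805 CPM, replicate 1 held 47.4 to 395 CPM and replicate 3 held 21.8 to 31.7 CPM.

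The spread of the members over the table matched these sums. Replicate 2 had more than 3 reads for 30 to 36 of the 37 members in each library, replicate 1 for 2 to 32 and replicate 3 for 8 to 22. Of the 37, 29 had over 75% of all their reads in replicate 2, 11 had over 90%, and 6 had under 50%. Those 6 were P2ry12 (41.9%), Tmem119 (24.4%), Siglech (1.74%), Gpr34 (32.3%), Cyba (48.6%) and Cd68 (38.1%), so that 4 of the 6 homeostatic genes were among them. Without the 2 libraries with few genes detected 3 were under 50%, namely P2ry12 (41.9%), Tmem119 (24.4%) and Gpr34 (43.5%), while Cyba had 50.9%, Cd68 55.3% and Siglech 66.7% (of 3 reads). Scaled for library size, the median tested member had 83.5% of its summed CPM in replicate 2, against 32.5% for the median of all 16539 tested genes, and the members ranged from 17.4% (Gpr34) to 99% (Fcer1g). With 16 libraries the median was 88%, against 37.2% for all genes, and the lowest was 37% (P2ry12), with Gpr34 at 44.3% and Cd68 at 56.3% (17.6% with 18).

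The highest of the 18 libraries was one of replicate 2 for 27 members, one of replicate 1 for 9 and one of replicate 3 for 1. With 16 libraries it was one of replicate 2 for 35 of 37. The day 7 co-culture of replicate 2 was the single highest library for 18 members, the day 2 co-culture of replicate 2 for 8 and the day 7 co-culture of replicate 1 for 7.

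**Figure D2:**
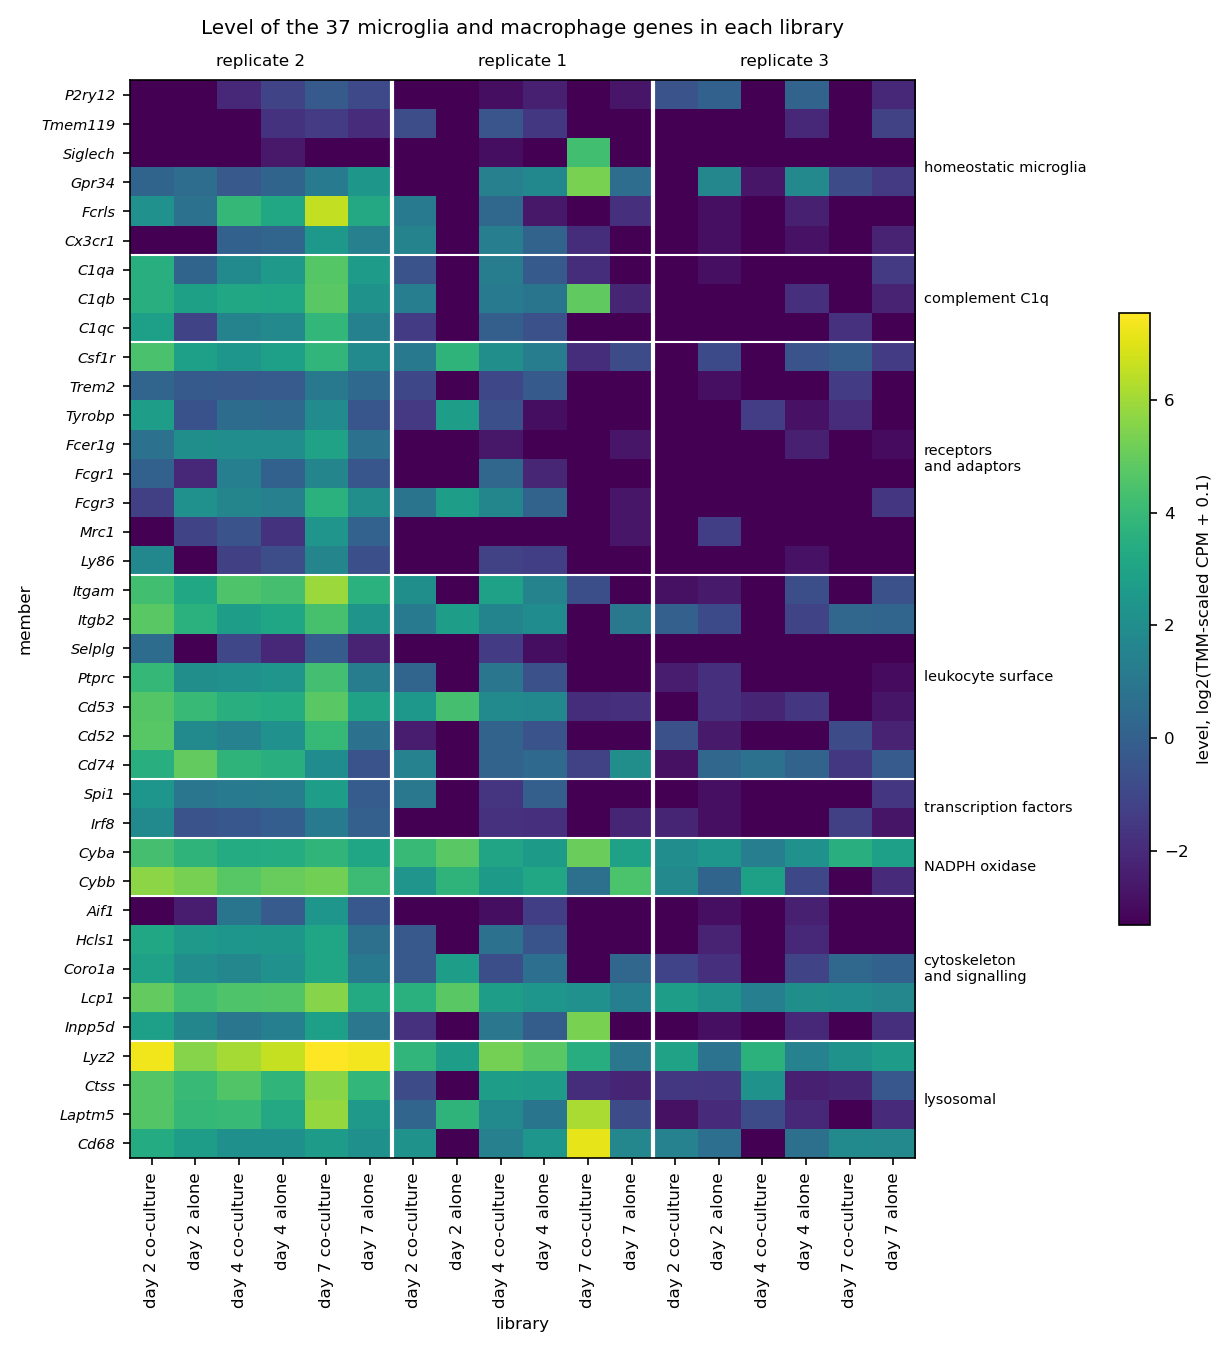
Level of each member (rows, grouped by role) in each library (columns) as log2(TMM-scaled CPM + 0.1), ordered by replicate number with co-culture left of alone at each day. The 6 columns of replicate 2 are brighter than those of replicate 3 for most rows, and Siglech, Gpr34, Inpp5d, Laptm5 and Cd68 are bright in the day 7 co-culture of replicate 1.

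Replicate 2 was compared with the mean of replicates 1 and 3 in a model with the 6 groups and the replicate number. Earlier results of these data had already shown replicate 2 to be high for most members, so the test gives the size of the difference and is not independent evidence of it. Of the 35 tested members, 26 were higher in replicate 2 and 0 were lower (edgeR's quasi-likelihood test, Benjamini-Hochberg adjusted p under 0.05 over all genes), where 2.71% of all tested genes were called in either direction and 1.58% higher. The median log2 fold change of the tested members was 4.38, against 0.05 for all genes, and 35 of 35 were fitted higher, against 55.1% of all genes. DESeq2 called 27, where it called 5.33% of all genes, and limma-voom with library weights called 26, where it called 8.11%. With 16 libraries 24 were called, of which 23 were also called with 18.

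Of the 26 calls, 15 remained in each of the 18 fits that left out 1 library. The count fell to 15 without the day 7 co-culture of replicate 2, and was 18 without its day 2 co-culture. It was 27 without replicate 1 and 2 without replicate 3, where Fcer1g and Lyz2 were called. The shares of all genes called in these fits are not given here. Against replicate 1 alone 5 members were called higher, where 1.46% of all genes were called, and against replicate 3 alone 26, where 3.94% were. Replicate 1 was itself higher than replicate 3 for 3 called members, C1qb, Cd53 and Laptm5, where 3.62% of all genes were called. DESeq2 and limma-voom each called 19 in that comparison, where they called 10.9% and 13.5% of all genes, and edgeR called 9 with 16 libraries and 11 without the day 7 co-culture of replicate 1.

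By overlap, 26 of the 35 tested members had all 6 libraries of replicate 2 above all 6 of replicate 3, where 2.67% of all tested genes did. Against the 6 libraries of replicate 1, 7 members had no overlap, where 1.03% of all genes did, and against the 4 of replicate 1 with most genes detected 13 members, where 2.10% of genes did. A count of 0 in astrocytes alone at day 2 of replicate 1 allows up to 20.2 CPM. Comparisons with all 6 libraries of replicate 1 take such a 0 as read.

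**Figure D3:**
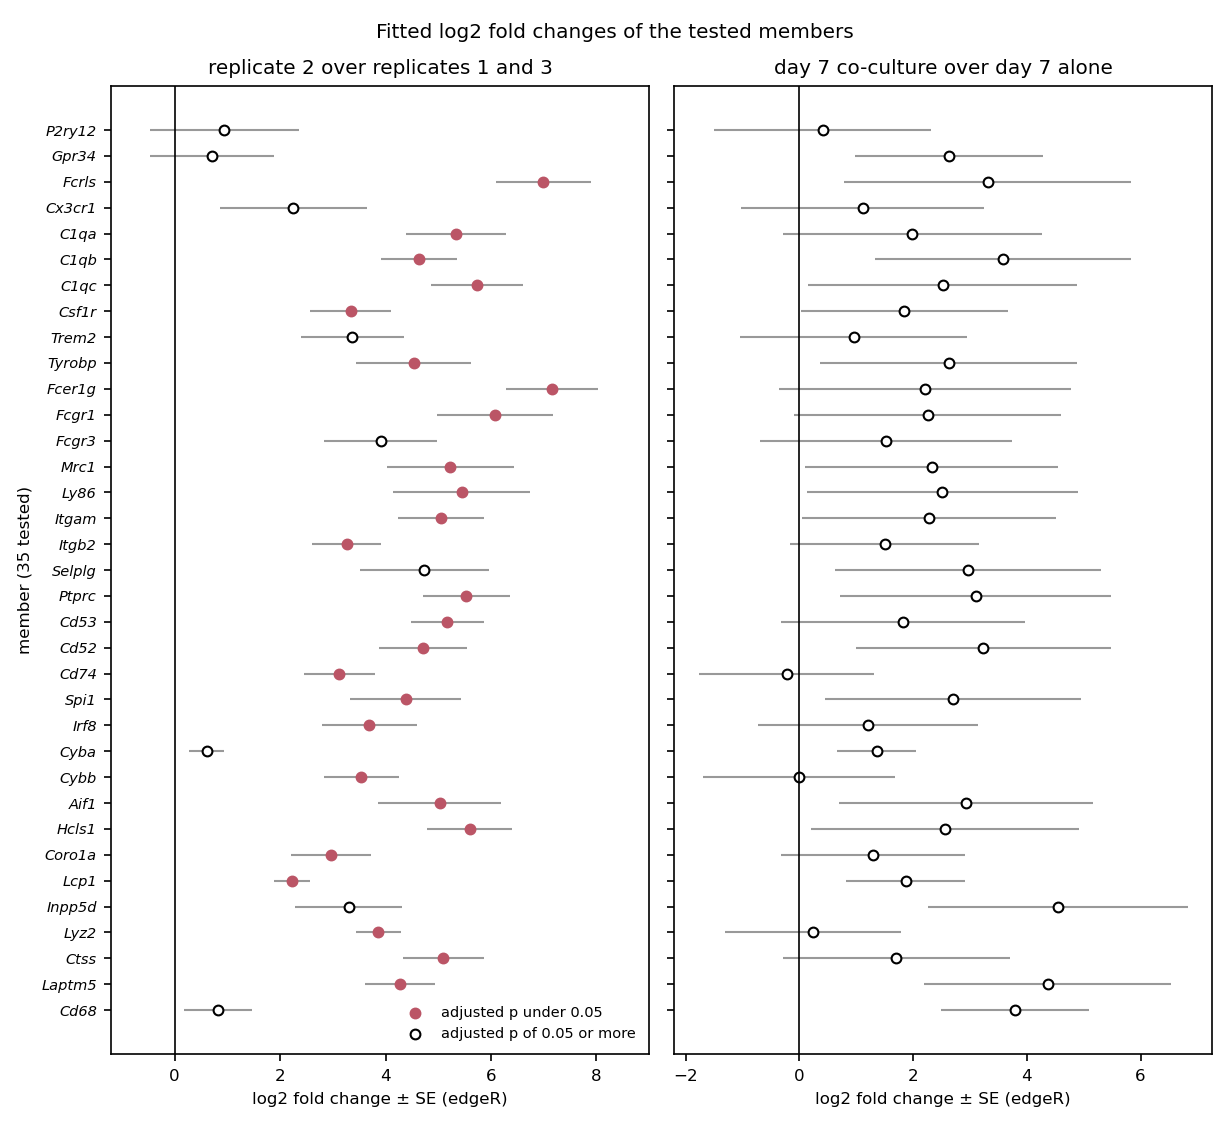
Fitted log2 fold change ± SE of the 35 tested members (edgeR), for replicate 2 over replicates 1 and 3 on the left and day 7 co-culture over day 7 alone on the right, filled where the adjusted p was under 0.05. On the left 26 points are filled and all lie right of 0, and on the right none is filled and the standard errors run from 0.69 to 2.57.

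The homeostatic genes did not move as 1 group. Fcrls, an Fc receptor-like surface protein of microglia, had 1.57 to 94.7 CPM in replicate 2 (median 9.32), 0 to 2.19 CPM in replicate 1 (median 0.118) and 0 to 0.0916 CPM in replicate 3 (median 0). Of the 6 libraries of replicate 2, only astrocytes alone at day 2 (1.57 CPM) lay within the range of replicate 1, and none lay within that of replicate 3. It was 7.00 ± 0.90 higher in replicate 2 on the log2 scale (SE, edgeR's adjusted p = 0.00042). Fcrls was the only one of the 4 tested homeostatic genes that was called, while the role's 4 log2 fold changes ran from 0.71 to 7.00.

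Cx3cr1, the receptor through which microglia sense the neuronal chemokine fractalkine, had 0 to 5.47 CPM in replicate 2, 0 to 2.82 CPM in replicate 1 and 0 to 0.103 CPM in replicate 3. It was at 0 reads in both day 2 libraries of replicate 2, where Lyz2 had 157 and 47.4 CPM in the co-culture and alone. P2ry12, the ADP receptor that guides microglial processes, had at most 0.743 CPM in replicate 2, 0.0916 CPM in replicate 1 and 1.01 CPM in replicate 3. Its 2 highest libraries were those of astrocytes alone at day 4 and day 2 in replicate 3, the 2 libraries with the lowest summed level of the 37 members.

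Gpr34, a lysophosphatidylserine receptor of microglia, had a median of 1.2 CPM in replicate 2, 1.97 CPM in replicate 1 and 0.364 CPM in replicate 3, with ranges that overlapped. Its highest value was 40.4 CPM, in the day 7 co-culture of replicate 1. Tmem119, a membrane protein used to tell microglia from other macrophages, had 82 reads in all 18 libraries and at most 0.631 CPM. Siglech, a sialic acid-binding receptor, had 115 reads in all, and 112 of them were in the day 7 co-culture of replicate 1.

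The 3 chains of complement C1q, which tag synapses and debris for removal, were all called higher in replicate 2. C1qb had 4.49 to 26.8 CPM in replicate 2 (median 8.76), 0 to 29.2 CPM in replicate 1 (median 1.96) and 0 to 0.183 CPM in replicate 3 (median 0). The highest library of C1qb was the day 7 co-culture of replicate 1, so replicates 2 and 1 overlapped, while all of replicate 2 lay above all of replicate 3. C1qb was 4.64 ± 0.72 higher in replicate 2 on the log2 scale (SE, edgeR's adjusted p = 0.00152). C1qa and C1qc reached 25.3 and 14.6 CPM in the day 7 co-culture of replicate 2 and at most 2.27 and 0.883 CPM outside replicate 2.

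Among the receptors and their adaptors, 6 of 8 were called higher in replicate 2. Csf1r, the receptor for colony-stimulating factor 1 on which microglia depend, had 3.58 to 21.6 CPM in replicate 2 (median 6.99), 0.168 to 13.4 CPM in replicate 1 (median 2.14) and 0 to 0.823 CPM in replicate 3 (median 0.366). The 13.4 CPM stood for 2 reads in astrocytes alone at day 2, and the next highest library of replicate 1 had 4.07 CPM. Csf1r was 3.34 ± 0.76 higher in replicate 2 (SE, log2 scale, edgeR's adjusted p = 0.0211), a call that was lost in 5 of the 18 fits without 1 library. Those 5 left out the day 2 co-culture of replicate 1 or replicate 2, the day 4 co-culture or day 4 alone of replicate 2, or the day 7 co-culture of replicate 2, with adjusted p up to 0.149.

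Fcer1g, the signalling chain shared by several Fc receptors, was nearly confined to replicate 2, with 730 of its reads there, 3 in replicate 1 and 3 in replicate 3. Its level was 1.60 to 7.65 CPM in replicate 2 (median 3.93) and at most 0.0631 CPM in replicate 1 and 0.0916 CPM in replicate 3. The values did not overlap, though the 0 reads in astrocytes alone at day 2 of replicate 1 allow up to 20.2 CPM. The log2 fold change of Fcer1g was 7.15 ± 0.87 (SE, edgeR's adjusted p = 0.000306), the largest among the members. Fcgr1, the high-affinity IgG receptor, had 240 reads in replicate 2, 39 in replicate 1 and 0 in replicate 3. The 2 receptor genes that were not called were Fcgr3, a low-affinity IgG receptor, with 3.91 ± 1.07 (SE, adjusted p = 0.0589) and Trem2, a lipid-sensing receptor, with 3.37 ± 0.98 (SE, adjusted p = 0.081). Trem2 nevertheless had each library of replicate 2 (0.717 to 2.01 CPM) above each of replicate 3 (0 to 0.274 CPM).

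Tyrobp, the adaptor of Trem2, had 0.561 to 6.67 CPM in replicate 2, 0 to 6.72 CPM in replicate 1 and 0 to 0.298 CPM in replicate 3. The 6.72 CPM in replicate 1 was a single read in astrocytes alone at day 2, and the highest of the other 5 libraries there had 0.536 CPM. Mrc1, the mannose receptor of perivascular macrophages, had 252 reads in replicate 2, of which 202 were in the day 7 co-culture, 1 read in replicate 1 and 8 reads in replicate 3. Ly86, a partner of the receptor Cd180, had 223 reads in replicate 2, 21 in replicate 1 and 1 in replicate 3. Mrc1, Ly86 and Tyrobp were called with all 18 libraries, with log2 fold changes of 5.23, 5.45 and 4.54, and each lost its call in 10 of the 18 fits without 1 library.

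Of the 7 leukocyte surface genes 6 were called higher in replicate 2. Itgam, the integrin chain CD11b, had 9.03 to 60.7 CPM in replicate 2 (median 19.7), 0 to 7.41 CPM in replicate 1 (median 1.64) and 0 to 0.541 CPM in replicate 3 (median 0.0573). Each library of replicate 2 was above all of the other 12 by its value. The 0 reads of Itgam in astrocytes alone at day 2 of replicate 1 allow up to 20.2 CPM. Its log2 fold change was 5.05 ± 0.82 (SE, edgeR's adjusted p = 0.00187). Its partner chain Itgb2 had 4.87 to 27.4 CPM in replicate 2, 0 to 6.72 CPM in replicate 1 (1 read at day 2 alone, and at most 3.79 CPM in the other libraries) and 0 to 1.10 CPM in replicate 3. The pan-leukocyte phosphatase Ptprc (CD45) had 2.30 to 19.6 CPM in replicate 2, at most 1.80 CPM in replicate 1 and at most 0.187 CPM in replicate 3.

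Cd53, a tetraspanin of leukocytes, had 7.65 to 27.3 CPM in replicate 2, 0.168 to 20.2 CPM in replicate 1 and 0 to 0.229 CPM in replicate 3. The 20.2 CPM was 3 reads in astrocytes alone at day 2, and the next highest library of replicate 1 had 5.45 CPM, under all of replicate 2. Cd52, a small glycoprotein anchored to the leukocyte surface, had 1.60 to 26.6 CPM in replicate 2 and at most 1.01 CPM in replicate 1 and 0.555 CPM in replicate 3. Cd74, the invariant chain of MHC class II, was highest in astrocytes alone at day 2 of replicate 2 (30.8 CPM) and lowest within that replicate at day 7 alone (0.588 CPM), and no other member was highest in that day 2 library. Selplg, the P-selectin ligand, had 77 reads in replicate 2, 10 in replicate 1 and 0 in replicate 3 and was not called, with 4.74 ± 1.23 (SE, adjusted p = 0.0663).

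Both transcription factors were called. Spi1 (PU.1) had 0.802 to 6.64 CPM in replicate 2 (median 2.18), 0 to 1.97 CPM in replicate 1 (median 0.11) and 0 to 0.232 CPM in replicate 3 (median 0). Replicates 2 and 1 overlapped, since the day 2 co-culture of replicate 1 had more Spi1 than 2 libraries of replicate 2. The log2 fold change of Spi1 was 4.38 ± 1.05 (SE, edgeR's adjusted p = 0.028). Its call was lost in 10 of the 18 fits without 1 library, with adjusted p up to 0.151, and those fits left out libraries of each replicate number. Irf8, the interferon regulatory factor that works with PU.1, had 0.589 to 3.45 CPM in replicate 2 and at most 0.189 and 0.314 CPM in replicates 1 and 3, and its call was lost in 12 of the 18 fits.

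The 2 membrane subunits of the phagocyte NADPH oxidase differed. Cybb, the catalytic subunit gp91phox, had 17.3 to 49.9 CPM in replicate 2 (median 34.8), 1.51 to 22.2 CPM in replicate 1 (median 7.45) and 0 to 7.15 CPM in replicate 3 (median 0.73). Replicate 2 was above replicate 3 throughout and overlapped replicate 1 only through astrocytes alone at day 7 (22.2 CPM). The log2 fold change of Cybb was 3.54 ± 0.71 (SE, edgeR's adjusted p = 0.00851). Cyba, the partner subunit p22phox, which many cell types express, had 8.45 to 20.2 CPM in replicate 2, 5.98 to 33.4 CPM in replicate 1 and 2.44 to 11.5 CPM in replicate 3, and its 0.61 ± 0.33 was not called (SE, adjusted p = 0.592).

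Of the 5 cytoskeletal and signalling genes 4 were called. Lcp1, the actin-bundling protein L-plastin, had 9.78 to 47.8 CPM in replicate 2 (median 23.8), 2.5 to 26.9 CPM in replicate 1 (median 5.97) and 2.5 to 6.50 CPM in replicate 3 (median 3.99). The 26.9 CPM was 4 reads in astrocytes alone at day 2, and the next highest library of replicate 1 had 12 CPM. Lcp1 was 2.22 ± 0.34 higher in replicate 2 (SE, log2 scale, edgeR's adjusted p = 0.00143), the smallest log2 fold change among the called members. Hcls1, a cortactin-like protein of blood cells, had 1.5 to 8.91 CPM in replicate 2, and at most 1.55 CPM in replicate 1 and 0.137 CPM in replicate 3.

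Coro1a, the actin-binding coronin of leukocytes, had 2.03 to 8.62 CPM in replicate 2 and at most 1.18 CPM in replicate 3, and its call was lost in 12 of the 18 fits. Aif1 (IBA1), a calcium-binding protein that is the standard stain for microglia, had 287 reads in replicate 2, 11 in replicate 1 and 3 in replicate 3. Within replicate 2 Aif1 had 0 reads in the day 2 co-culture and 209 in the day 7 co-culture, and its call was lost in 10 of the 18 fits. Inpp5d, the lipid phosphatase SHIP1, had 1.84 to 7.03 CPM in replicate 2 and 41.1 CPM in the day 7 co-culture of replicate 1. Its log2 fold change of 3.30 ± 1.01 was not called (SE, edgeR's adjusted p = 0.108). Of its summed CPM, 34.4% was in replicate 2 with 18 libraries and 87.8% with 16.

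Among the 4 lysosomal genes 3 were called. Lyz2, the lysozyme of macrophages, had 47.4 to 187 CPM in replicate 2 (median 127), 1.86 to 38.3 CPM in replicate 1 (median 12.5) and 1.68 to 12.4 CPM in replicate 3 (median 5.30). Each library of replicate 2 was above all 12 others, and the log2 fold change was 3.86 ± 0.43 (SE, edgeR's adjusted p = 0.000148). Lyz2 alone gave 17.1% to 53.8% of all member reads in the libraries of replicate 2. Lyz2 has a near-identical neighbour gene, Lyz1, and how reads shared by both were counted is not given.

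Ctss, the cathepsin that cuts the invariant chain, had 13.8 to 49.2 CPM in replicate 2, 0 to 6.62 CPM in replicate 1 and 0.0916 to 4.65 CPM in replicate 3. Laptm5, a lysosomal membrane protein of blood cells, had 5.67 to 56.1 CPM in replicate 2, 0.465 to 72.7 CPM in replicate 1 and 0 to 0.477 CPM in replicate 3. The values of Ctss did not overlap between replicate 2 and the others, though its 0 reads in replicate 1 alone at day 2 allow up to 20.2 CPM. Laptm5 overlapped replicate 1 through its day 7 co-culture and through 2 reads (13.4 CPM) in astrocytes alone at day 2. Cd68, a heavily glycosylated lysosomal protein, was 0.83 ± 0.65 higher in replicate 2 and was not called (SE, adjusted p = 0.796). It had 4.30 to 10.3 CPM in replicate 2, 0 to 141 CPM in replicate 1 and 0 to 3.61 CPM in replicate 3.

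Compared per length of exon sequence, Lyz2 was the most abundant member in replicate 2, with 91.2 ± 43.7 CPM per kilobase (SD, n = 6). The next were Ctss with 17.5 ± 9.83, Cyba with 12.3 ± 3.99 and C1qb with 10.3 ± 7.33 CPM per kilobase. The ranges of these last 3 overlapped within their SD. P2ry12 had 0.109 ± 0.114 and Tmem119 0.0455 ± 0.0522 CPM per kilobase in the same libraries. The astrocyte gene Gfap had 115 ± 14.6 CPM per kilobase there, near the level of Lyz2.

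The make-up of the member reads differed between libraries. In replicate 2 the general genes gave 32.4% to 68.3% of them, the lysosomal genes 30.6% to 61.8% and the homeostatic genes 1.01% to 12.8%. The homeostatic share in replicate 2 was 1.01% in the co-culture and 1.06% alone at day 2, 5.66% and 3.80% at day 4, and 12.8% and 5.84% at day 7. In both kinds of culture it was thus lowest at day 2 and highest at day 7 in this replicate number. Most of these reads were of Fcrls, so the share mainly followed 1 gene. Fcrls had 3825 of the 4172 homeostatic reads in the day 7 co-culture and 177 of 335 alone. At day 4 it had 337 of 377 and 276 of 358, and at day 2 it had 100 of 123 and 56 of 105. Its level was 4.47, 15.1 and 94.7 CPM in the co-culture and 1.57, 9.17 and 9.46 CPM alone at days 2, 4 and 7. In replicate 3 the homeostatic share was 2.18% in the co-culture and 19.1% alone at day 2, 0.188% and 21.3% at day 4, and 1.63% and 3.15% at day 7, and at days 2 and 4 alone Gpr34 and P2ry12 had most of those reads.

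The 6 libraries of replicate 2 also differed among themselves in a way many members shared. The day 7 co-culture was the highest of the 6 for 22 members and the day 2 co-culture for 12. Astrocytes alone at day 7 were the lowest for 15 and alone at day 2 for 10, and 4 members were tied at 0 in several of the 6. These are single libraries, so no test was made.

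The day 7 co-culture of replicate 1 had its own pattern. Of the 37 members 20 were at 0 reads there, among them Fcrls, C1qc, Trem2, Itgb2, Ptprc, Cd52 and Spi1. Yet Cd68 had 843 reads (141 CPM), Laptm5 434 (72.7 CPM), Inpp5d 245 (41.1 CPM), Gpr34 241 (40.4 CPM), Cyba 199 (33.4 CPM), C1qb 174 (29.2 CPM) and Siglech 112 (18.8 CPM). Those 7 genes had their highest level of the 18 libraries there. Csf1r, C1qa, Cx3cr1, Cd53 and Ctss had 1 read each in that library, and Lyz2 had 65. In it a read was found in 83.1% of tested genes and 1 gene took 40.5% of all reads.

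No member passed the test for co-culture with neurons. The tests of co-culture and of days used group means without the replicate number, so differences between replicate numbers counted as spread. A lack of calls is therefore not a measure of no effect. Adding the replicate number as a block changed no call. At day 2, 0 of 35 tested members were called by edgeR, where 0.00% of all genes were, and 0 had an unadjusted p under 0.05, where 2.35% of all genes did. At day 4 the counts were again 0 called, where 0.00% of all genes were, and 0 at an unadjusted p under 0.05 (0.369% of all genes). At day 7, 0 were called, where 0.00% of all genes were, and 1, Cd68, had an unadjusted p under 0.05 (9.37% of all genes). In the average over days, 0 were called, where 0.00% of genes were, and 1, Selplg, had an unadjusted p under 0.05 (4.17% of all genes). In that average 29 of 35 were fitted higher, against 52.6% of all genes. limma-voom called 0 in each of these 4 comparisons, and DESeq2 called 0 at day 4, at day 7 and in the average, where it called 0.00%, 0.0302% and 0.00% of all genes, and 1 at day 2, where it called 0.133%.

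At day 2, 27 of the 35 tested members were fitted higher in co-culture (53.3% of all genes were), with a median log2 fold change of 0.61. The pairs did not share this. In replicate 2, 27 members were higher and 6 lower in the co-culture, and the summed level was 1.96 times that of astrocytes alone. In replicate 3, 9 were higher and 18 lower, while the summed level was 1.25 times that of astrocytes alone. Many of the lower ones, among them Fcrls, C1qa, Spi1, Itgam and Hcls1, had 3 reads or fewer in both libraries and gave no direction. In replicate 1, 16 were higher and 10 lower, beside the library with 22 member reads. Lyz2, Ctss, Cd52, Cd68, Itgb2, Cybb, Lcp1, Irf8 and Coro1a were higher in the co-culture of both replicates 2 and 3 at day 2. In replicate 3 this was 6 reads in each library for Ctss, and 3 reads against 1 for Irf8. In replicate 1 the library alone held at most 4 reads of each of these genes, where 3 reads are 20.2 CPM, so that pair gave no direction. Lyz2 had 157, 14.1 and 7.69 CPM in the co-cultures of replicates 2, 1 and 3, against 47.4, 6.72 and 1.68 CPM alone. The gene that DESeq2 called at day 2 was Aif1, lower in co-culture, which had 0 reads in each of the 3 co-cultures and 3, 0 and 1 reads in replicates 2, 1 and 3 of astrocytes alone.

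At day 4, 17 of 35 members were fitted higher in co-culture (48.6% of all genes), with a median log2 fold change of -0.02. In replicate 2, 13 were higher and 22 lower in the co-culture, in replicate 1, 24 and 10, and in replicate 3, 6 and 18. The summed level in the co-culture was 0.952, 1.30 and 1.44 times that of astrocytes alone in replicates 2, 1 and 3. Ctss, Laptm5 and Tyrobp were higher in all 3 pairs, Ctss with 24.4, 6.62 and 4.65 CPM in the co-cultures of replicates 2, 1 and 3, against 13.8, 6.35 and 0.0916 CPM alone. P2ry12, Gpr34, Trem2, Itgb2, Spi1, Coro1a and Cd68 were higher in none of the 3 pairs.

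At day 7, 33 of 35 members were fitted higher in co-culture (50.2% of all genes), with a median log2 fold change of 2.25, against 0.00 for all genes. The pairs differed. In replicate 2, 34 members were higher and 1 lower in the co-culture, and the summed level was 2.62 times that of astrocytes alone. In replicate 1, 12 were higher and 12 lower, with a summed level 8.34 times that of astrocytes alone, most of it in Cd68, Laptm5, Inpp5d and Gpr34 of the co-culture with few genes detected. In replicate 3, 12 were higher and 16 lower, and the summed level was 1.10 times that of astrocytes alone. Cd68, Cyba and Lcp1 were higher in co-culture in all 3 pairs. Without replicate 2 the median was -0.36 over the 28 members then tested, of which 12 were fitted higher, and with the replicate block it was 1.41. Over the fits that left out libraries it ran from -3.48 to 5.87, and 0 members were called in each of them.

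The effect of co-culture was also compared between days. None of the 35 members was called by edgeR for day 4 minus day 2, day 7 minus day 2 or day 7 minus day 4, where 0.00% of all genes were called each time. At an unadjusted p under 0.05 there were 0, 2 (Gpr34 and Mrc1) and 1 (Cd68) members in these comparisons, against 1.06%, 5.47% and 3.07% of all genes. The members fitted higher were 9, 27 and 34 of 35, against 46.7%, 51.9% and 53.6% of all genes. DESeq2 called 0, 1 (Aif1) and 0 members, against 0.00%, 0.0181% and 0.00% of all genes, and limma-voom called 0 in each.

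The 8 members with the highest mean level in their role show the day 7 pairs. Fcrls had 94.7, 0 and 0 CPM in replicates 2, 1 and 3 of the co-culture, against 9.46, 0.174 and 0 CPM alone. C1qb had 26.8, 29.2 and 0 CPM in replicates 2, 1 and 3 of the co-culture, against 4.49, 0.116 and 0.103 CPM alone. Fcrls was therefore higher in the co-culture in 1 pair and C1qb in 2, with log2 fold changes of 3.31 ± 2.52 and 3.58 ± 2.25 (SE, edgeR's adjusted p = 0.735 and 0.652).

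Csf1r had 14.2, 0.168 and 0.823 CPM in replicates 2, 1 and 3 of the co-culture, against 3.58, 0.465 and 0.284 CPM alone. Itgam had 60.7, 0.503 and 0 CPM in the co-culture, against 12.2, 0 and 0.541 CPM alone. Spi1 had 6.64, 0 and 0 CPM in the co-culture, against 0.802, 0 and 0.232 CPM alone. All 3 had overlapping groups, with log2 fold changes of 1.84 ± 1.82, 2.27 ± 2.23 and 2.70 ± 2.25 (SE, edgeR's adjusted p = 0.827, 0.826 and 0.771).

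Cybb had 37.5, 1.51 and 0 CPM in replicates 2, 1 and 3 of the co-culture, against 17.3, 22.2 and 0.155 CPM alone. Lcp1 had 47.8, 4.36 and 3.80 CPM in the co-culture, against 9.78, 2.5 and 3.14 CPM alone. Lyz2 had 187, 10.9 and 4.55 CPM in the co-culture, against 165, 1.86 and 6.06 CPM alone. Lcp1 was higher in all 3 pairs, yet its groups overlapped, with a log2 fold change of 1.87 ± 1.05 (SE, edgeR's adjusted p = 0.593). Cybb and Lyz2 had log2 fold changes of -0.00 ± 1.69 and 0.24 ± 1.55 (SE, edgeR's adjusted p = 1 and 0.99), and without the day 7 co-culture of replicate 2 the value of Lyz2 was -3.0.

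**Figure D4:**
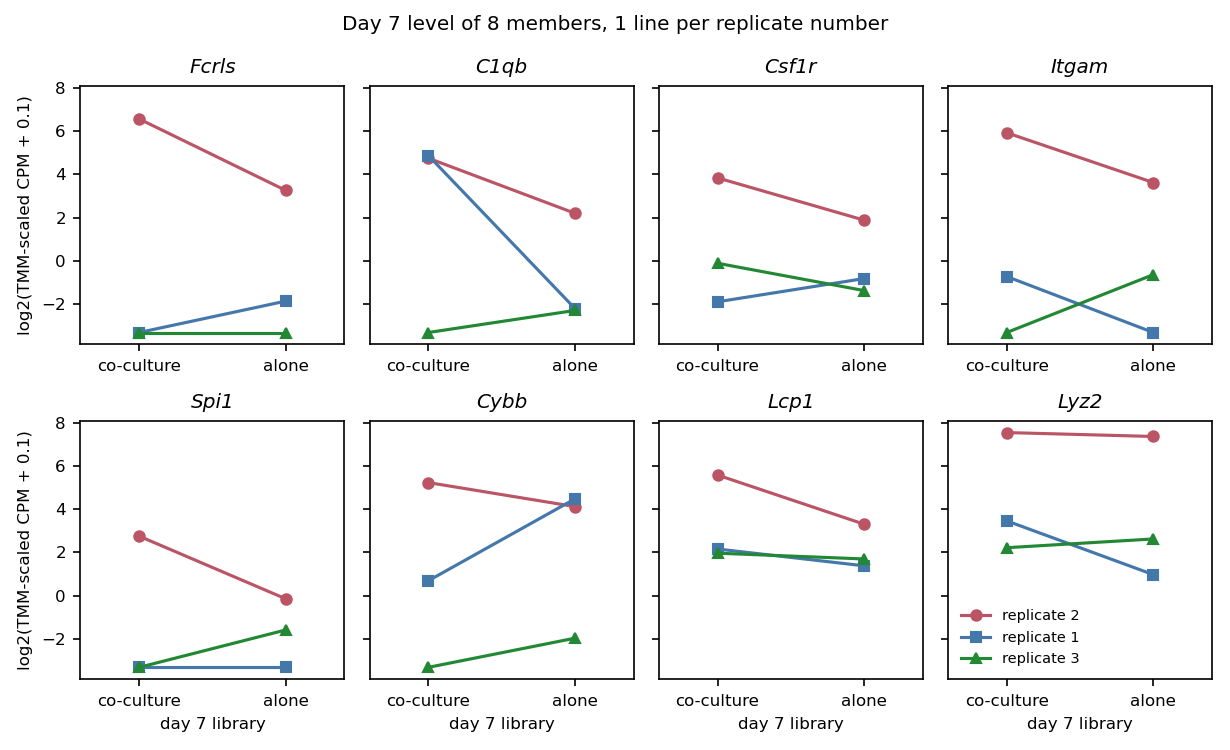
Level at day 7 of the member with the highest mean level in each of the 8 roles, as log2(TMM-scaled CPM + 0.1), with co-culture left of alone and 1 line for each replicate number. The lines of replicate 2 lie highest or nearly highest in each panel and slope down to the right, with Lyz2 at 187 CPM in the co-culture and 165 CPM alone, while those of replicates 1 and 3 slope up for some genes and down for others.

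Over time, day 7 was compared with day 2 within each kind of culture. In co-culture 0 of 35 members were called by edgeR, where 0.00% of all genes were, and 4 had an unadjusted p under 0.05 (13.2% of all genes), namely Aif1, Cd68, Gpr34 and Mrc1. The median log2 fold change was 0.53, with 23 of 35 fitted higher, against 51.2% of all genes. DESeq2 called 2 in this comparison, Aif1 and Gpr34, both higher at day 7, where it called 1.50% of all genes, and limma-voom called 0. Aif1 had 209, 0 and 0 reads in replicates 2, 1 and 3 of the day 7 co-culture, against 0 in each day 2 co-culture, so the difference was in 1 library. Gpr34 had 2.10, 40.4 and 0.470 CPM in replicates 2, 1 and 3 of the day 7 co-culture, against 1.03, 0 and 0 CPM at day 2.

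In astrocytes alone 0 of 35 members were called between day 7 and day 2 by edgeR, where 0.00% of all genes were, 0 had an unadjusted p under 0.05 (1.11% of all genes), and DESeq2 and limma-voom called 0 (0.0181% and 0.00% of all genes). The median log2 fold change was -0.69, with 14 of 35 fitted higher (51.0% of all genes), and it was 0.03 with the replicate block. Lyz2 had 165, 1.86 and 6.06 CPM alone at day 7 in replicates 2, 1 and 3, against 47.4, 6.72 and 1.68 CPM alone at day 2. Cd53 had 7.65, 0.174 and 0.0516 CPM alone at day 7, against 16.4, 20.2 and 0.187 CPM alone at day 2. Lyz2 was thus higher at day 7 in replicates 2 and 3, while Cd53 was lower at day 7 in replicate 2. In replicate 3 Cd53 had 5 reads at day 2 and 2 at day 7, so no direction is given for it there. In replicate 1 the day 2 library held 1 read of Lyz2 and 3 of Cd53, and the day 7 library also held 3 of Cd53, so no direction is given for that number.

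Other genes of the same cells were read from lists chosen with earlier results of these data known. Of 36 tested further genes of microglia and myeloid cells, 20 were called higher in replicate 2 than in replicates 1 and 3, where 1.58% of all genes were. Their median log2 fold change was 3.89. Adgre1, the macrophage surface receptor F4/80, had 16 to 173 CPM in replicate 2, 0 to 11 CPM in replicate 1 and 0.0784 to 0.962 CPM in replicate 3. The 3 groups of Adgre1 followed the order of the members, and its log2 fold change was 5.99 ± 0.63 (SE, edgeR's adjusted p = 0.000137). Mpeg1, a pore-forming protein of macrophages, was also called (2.51 ± 0.55, SE), while Tlr2 and Sall1 were not. Sall1, a factor that marks microglia among macrophages, had 52.1 to 69.4, 43.5 to 70.2 and 37.8 to 66.6 CPM in replicates 2, 1 and 3, so it did not follow the members. In replicate 3 Spi1 had at most 0.232 CPM and Fcrls at most 0.0916 CPM beside it. Which cells held the Sall1 RNA was not tested.

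Among 12 tested genes of activated and lipid-handling microglia 6 were called higher in replicate 2, where 1.58% of all genes were. These were Lpl, Mmp12, Il1b, Tnf, Ccl3 and Ccl4. Il1b, the cytokine interleukin-1 beta, had 0.428 to 64.0 CPM in replicate 2, against at most 13.4 CPM in replicate 1 (2 reads in astrocytes alone at day 2) and 0.596 CPM in replicate 3. The genes of that list with the highest levels, Apoe, Spp1, Gpnmb and Lgals3, were not called, and Apoe, which astrocytes also make in large amounts, had 246 to 487 CPM in replicate 2, 146 to 376 CPM in replicate 1 and 185 to 552 CPM in replicate 3. Of 6 tested genes of macrophages at the borders of the brain 4 were called higher (Pf4, Ms4a7, Stab1 and Cd209f), against 1.58% of all genes. F13a1, the most abundant of that list, and Cbr2 were not called. Their log2 fold changes were 0.53 ± 0.55 and 1.62 ± 0.81 (SE, edgeR's adjusted p = 0.876 and 0.506). Lyve1, Cd163 and Folr2 had 1, 0 and 26 reads in all 18 libraries and did not pass the expression filter. The genes named here beyond the 4 of highest level in a list were chosen after their values were seen.

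Lysosomal genes that all cells use did not share the pattern of Lyz2, Ctss and Laptm5. Of 20 tested, 0 were called by edgeR between replicate 2 and the others, where 2.71% of all genes were, and the median log2 fold change was 0.17. Ctsb had 675 to 1633 CPM in replicate 2, 564 to 1674 CPM in replicate 1 and 840 to 1873 CPM in replicate 3. Ctsd had 846 to 1612 CPM in replicate 2, 484 to 1317 CPM in replicate 1 and 581 to 1238 CPM in replicate 3. The 3 groups overlapped for both. The difference between this list and the members was not tested.

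The ligands Csf1 and Cx3cl1, which act on microglia, had reads in all libraries. Tgfb1, named after its values were seen, had 1.74 to 3.62, 0 to 5.2 and 0.317 to 1.07 CPM in replicates 2, 1 and 3. Csf1, the ligand of Csf1r, had 622 to 2314 CPM in replicate 2, 447 to 2340 CPM in replicate 1 and 515 to 827 CPM in replicate 3, and was not called (0.83 ± 0.30, SE, adjusted p = 0.205). Cx3cl1 (fractalkine), the ligand of Cx3cr1, had 14.1 to 204 CPM in replicate 2, 6.03 to 115 CPM in replicate 1 and 12.1 to 20.9 CPM in replicate 3. Its groups overlapped, but it was called higher in replicate 2 (1.87 ± 0.46, SE, edgeR's adjusted p = 0.032). It was the 1 called of 8 tested ligand, receptor and contact genes, where 1.58% of all genes were called higher.

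Markers of other cells were also read by replicate number. The 8 neutrophil genes summed to at most 2.89 CPM in replicate 2, 6.72 CPM in replicate 1 and 0.784 CPM in replicate 3. The 6.72 CPM was 1 read in astrocytes alone at day 2, and without the 2 libraries with few genes detected replicate 1 reached 1.80 CPM. The 10 lymphocyte genes summed to at most 5.06, 13.4 and 3.33 CPM in replicates 2, 1 and 3, and 5, 6 and 6 of them were at 0 in all libraries of the number. The 13.4 CPM was 2 reads in the same library, and without the 2 libraries replicate 1 reached 3.09 CPM. Lck had the most reads of the lymphocyte list, 682 in all. The 6 red cell genes summed to at most 6.26, 14.3 and 9.78 CPM in replicates 2, 1 and 3. Most of this was Alas2, with at most 6.15, 14.3 and 9.78 CPM, while no haemoglobin gene passed 0.284 CPM. In replicate 2, where the members summed to 278 to 805 CPM, each of these 3 lists thus stayed at or under 6.26 CPM. Of 10 tested astrocyte genes 1 was called higher (Slc1a2, 1.56 ± 0.33) and 1 lower (Slc1a3, -0.94 ± 0.21) in replicate 2 (SE, edgeR). Of all genes 2.71% were called in either direction. Against single numbers, 2 astrocyte genes were called higher in replicate 2 than in replicate 1 and 3 lower in replicate 2 than in replicate 3. A further comparison called 6 lower in replicate 1 than in replicate 3. Of all genes 1.46%, 3.94% and 3.62% were called in either direction in these comparisons. The astrocyte genes thus also moved with the replicate number. Between replicate 2 and replicates 1 and 3, edgeR called 0 of 6 tested neuron genes and 0 of 7 oligodendrocyte lineage genes. It also called 0 of 8 genes of fibroblasts and mural cells and 0 of 6 of endothelial cells, against 2.71% of all genes. All 6 neuron genes were fitted higher in replicate 2 (median log2 fold change 1.91), as were 7 of 8 fibroblast and mural genes (0.32). Of the oligodendrocyte genes 2 of 7 were (-0.86), and of the endothelial genes 3 of 6 (-0.60), against 55.1% of all genes. The part of these other cells in the members' levels was not tested.

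**Figure D5:**
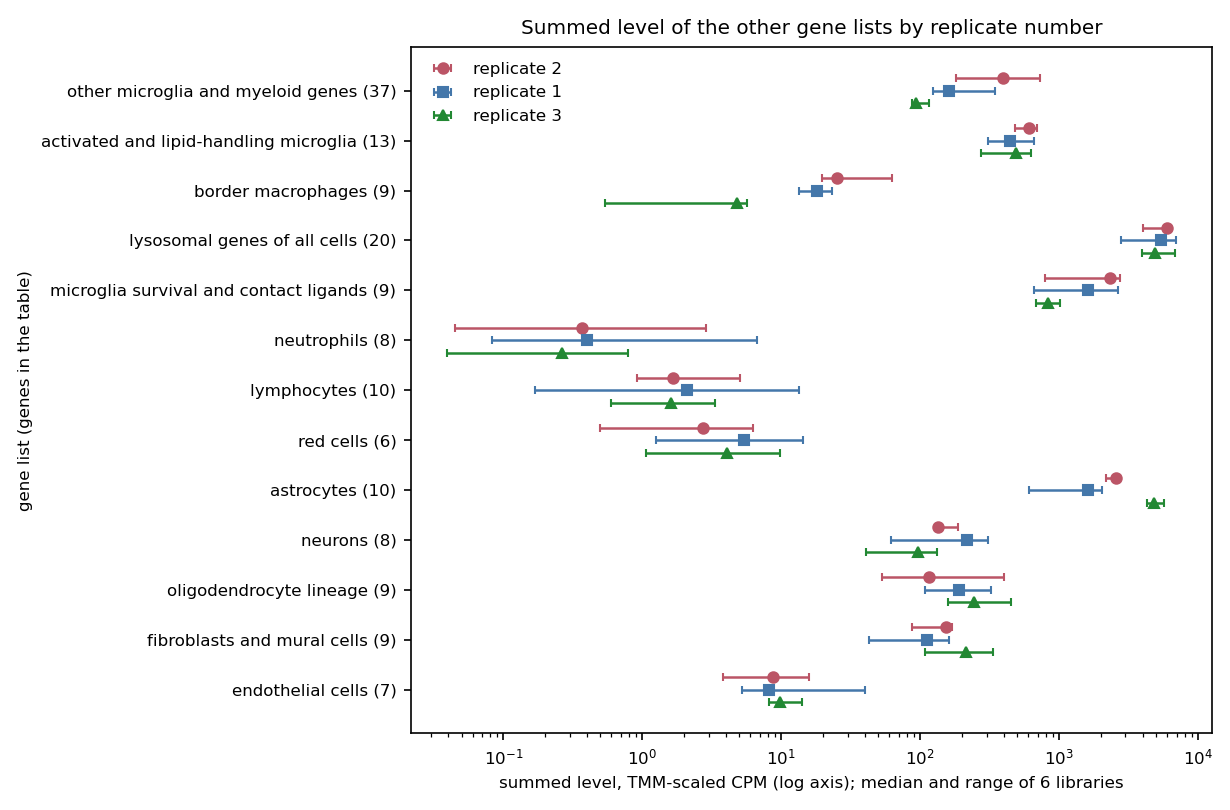
Summed TMM-scaled CPM of 13 other gene lists by replicate number (log axis), with points at the median and lines over the range of 6 libraries. Other microglia and myeloid genes and border macrophage genes lie highest in replicate 2 and lowest in replicate 3, astrocyte genes lie highest in replicate 3 (4251 to 5647 CPM), and the lysosomal genes of all cells overlap.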

How the data were processed

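RNA was measured in 18 libraries of sorted mouse astrocytes, 3 in each of 6 groups. The authors deposited a table of whole-number read counts per Entrez gene. Per the submitters' processing notes it was made with Subread and featureCounts on build mm9, with no versions. The sources used here do not give the strand setting or how shared reads were handled. Per the labels' protocols, ribosomal RNA was removed and libraries were made with a low-input SMARTer kit.

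Counts were fitted in edgeR 4.0.16 (R 4.3.3) with 6 group means, TMM scaling and the default expression filter by group, and tested by quasi-likelihood with Benjamini-Hochberg adjustment over 16539 genes (threshold 0.05). A second fit added the replicate number. DESeq2 1.42.0, limma 3.58.1 (voom with library weights), other filters and scaling, and fits without libraries were alternatives. Figures were drawn with matplotlib 3.10.9 in Python 3.11.15. Scripts were tested on simulated data. The median biological coefficient of variation was 0.569. Depth limits a count of 0 to under 3 reads, and intervals cover counting error only.

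The members and gene lists were chosen with earlier results of these data known. Statistics were printed for the member with the highest mean level in each role and for called members, with up to 4 genes of highest level per list, and statistics of members that were not called were added after their values were seen. Of the 158 places on the other lists, 155 were filled by genes found in the table. In the table, 17 columns of the authors' correlations were not used.

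Replicate numbers paired the samples, since the labels give each number 1 date. The correlation of deviations from the mean of each group was 0.128 to 0.549 within a number and day, and -0.372 to -0.00718 between numbers. No 2 libraries of a group agreed within sampling noise (lowest chi-square per degree of freedom 108). Promoters and exon lengths are from GRCm38 annotation, not mm9, and were matched by symbol.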

Additional observations from a re-analysis of the deposited data

Results flagged for a closer look

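Cd68, the lysosomal glycoprotein of macrophages, was the only member whose 3 pairs all had one direction at one day and all the opposite direction at another. By its values it was higher in co-culture in all 3 pairs at day 2 and day 7 and lower in all 3 at day 4, but the replicate 1 pair at day 2 gave no direction, since its library alone had 0 reads, which allows up to 20.2 CPM. At day 4 it had 4.30, 2.55 and 0 CPM in the co-cultures of replicates 2, 1 and 3, against 4.35, 5.10 and 1.51 CPM alone. At day 7 it had 6.39, 141 and 3.61 CPM in the co-cultures, against 4.33, 3.19 and 3.35 CPM alone. At day 2 it had 10.3, 4.51 and 2.74 CPM in the co-cultures, against 6.45, 0 and 1.46 CPM alone. The difference itself was tested in edgeR as an interaction and was not called. The effect at day 4 minus that at day 2 was -1.35 ± 1.74 on the log2 scale (SE, edgeR's adjusted p = 1), and the effect at day 7 minus that at day 4 was 4.46 ± 1.73 (SE, edgeR's adjusted p = 1, unadjusted p = 0.0187). The 141 CPM came from the replicate 1 co-culture with few genes detected.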

How the results depend on the processing

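No member was called for co-culture at day 4, at day 7 or in the average over days under any alternative, and leaving out libraries gave 0 to 0 calls at each day and for time. DESeq2 called 1 member at day 2 and 2 for day 7 against day 2 in co-culture. Replicate numbers pair the samples, and the replicate block changed no call; it turned only Spi1 at day 7, to -0.57. The 26 calls for replicate 2 became 15 without its day 7 co-culture, 2 without replicate 3 and, against replicate 1 alone (chosen after seeing the data, as was the comparison of replicates 1 and 3), 5; fits without libraries gave 2 to 28. The 3 calls for replicate 1 against 3 became 19 with DESeq2 and 19 with limma-voom, while the share of all genes called was 3.62% with edgeR, 10.9% with DESeq2 and 13.5% with limma-voom, and became 9 with 16 libraries, and 3 to 11 in fits without 1 library (7 without replicate 1 and 5 without replicate 3 of day 7 alone). At day 7 the log2 fold changes of 7 of the 8 leading members reversed in some fits, none of them called. Without the day 7 co-culture of replicate 2 they were -9.31 for Fcrls, -1.47 for Csf1r, -4.71 for Itgam, -6.12 for Spi1, -0.41 for Lcp1 and -3.0 for Lyz2. Without all of replicate 2 they were -3.96 for Fcrls, -0.57 for Itgam and -4.65 for Spi1. Lyz2 was -0.33 without replicate 1 and -0.30 without replicate 3 of day 7 alone. Cybb, at -0.00 with 18 libraries, was 0.006 with no filter, 0.51 with 16 libraries, 1.10 without replicate 1, and 0.60 and 0.24 without replicates 1 and 2 of day 7 alone and 0.52 and 0.58 without replicates 1 and 3 of the day 7 co-culture. Over all fits without libraries, Fcrls ran from -9.31 to 8.75, Csf1r from -1.47 to 3.78, Itgam from -4.71 to 6.09, Spi1 from -6.12 to 4.12, Cybb from -4.53 to 1.10, Lcp1 from -0.41 to 2.73 and Lyz2 from -3.0 to 4.08. The cause was not tested. In bulk RNA from 3 libraries a group, low members are limited by counts, above all in the 2 libraries with few genes detected.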
